A study of Homo sapiens with 22 samples.

Results

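N-MYC chromatin immunoprecipitation followed by sequencing (ChIP-seq) was performed in the neuroblastoma cell lines IMR-32 and CHP-134, and 350 N-MYC sites were called in IMR-32 and not in CHP-134. To find them, the N-MYC peaks of both IMR-32 libraries were merged where they shared at least 1 bp, which left 9390 regions. Of these, 4054 were hit by both libraries. The 350 regions that overlapped no peak of any of the 3 N-MYC libraries of CHP-134 cells given dimethyl sulfoxide (DMSO) are called IMR-32-only sites here, and the other 3704 are called shared sites. The membership of a site, its N-MYC fold in IMR-32 and its lack of an N-MYC peak in DMSO-treated CHP-134 cells are therefore values that the sites were chosen by, and they are described without a test. Of the 350 sites, 26 lay at 15-16 Mb of chromosome 2, 28 lay at 67-68 Mb of chromosome 2, and 296 lay elsewhere (hg19). Values are given with and without these 2 windows.

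IMR-32 cells were untreated, and each of their N-MYC and WDR5 groups had 2 libraries (N-MYC replicates 1 and 2, WDR5 replicates 1 and 3). CHP-134 cells had been given DMSO or a compound for 4 h before the chromatin was collected, with 3 libraries per antibody in each arm. The DMSO concentration is 0.0005% in 1 part of the labels and 0.005% in another, and the labels name the compound in several ways, so it is not identified here. Both lines carry amplified MYCN, and each library was made from 3 pooled ChIPs of the same chromatin source. The study's methods say that the ChIP-seq experiments were repeated independently, and the labels do not say whether replicates came from separate cultures. IMR-32 libraries were sequenced as paired-end reads and CHP-134 libraries as single reads on another instrument, so the cell line, the DMSO exposure and the sequencing cannot be told apart.

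N-MYC is a transcription factor of the MYC family that pairs with MAX and binds the E-box, whose canonical form is CACGTG, and related sequences, mostly at active promoters and to a lesser extent at enhancers. Amplification of its gene, MYCN, marks a high-risk class of neuroblastoma. WDR5 is a scaffold protein of histone H3 lysine methyltransferase complexes that also contacts MYC proteins and helps them to reach a set of genes, many of which code for ribosomal proteins.

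The sequences at the summits of 6 IMR-32-only sites are shown because they include the strongest sites with a canonical E-box and, for contrast, the strongest sites with none of the 7 E-box forms searched. Each is 101 bases of the plus strand of GRCh37 (hg19), 50 bases on each side of the summit, in lower case, with CACGTG in capitals. The sites are named after the gene with the nearest transcription start site (TSS). They are LINC00896 (chr22:20199642-20199742), ENSG00000274949 (chr20:3792516-3792616), ANKRD36BP2 (chr2:89065198-89065298) and ENSG00000262094 (chr17:81153251-81153351), followed by the coding exon of DCBLD1 that lies nearest to the TSS of the readthrough gene ENSG00000282218 (chr6:117869120-117869220) and an intron of TGIF1 (chr18:3450668-3450768).
LINC00896: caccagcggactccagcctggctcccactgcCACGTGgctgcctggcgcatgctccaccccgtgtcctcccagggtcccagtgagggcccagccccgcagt
ENSG00000274949: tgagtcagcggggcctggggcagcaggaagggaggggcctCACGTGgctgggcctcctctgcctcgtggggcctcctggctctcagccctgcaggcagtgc
ANKRD36BP2: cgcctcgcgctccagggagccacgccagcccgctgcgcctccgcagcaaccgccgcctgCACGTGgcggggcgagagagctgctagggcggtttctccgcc
ENSG00000262094: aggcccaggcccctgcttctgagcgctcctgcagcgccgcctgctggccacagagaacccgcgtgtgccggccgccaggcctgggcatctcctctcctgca
ENSG00000282218: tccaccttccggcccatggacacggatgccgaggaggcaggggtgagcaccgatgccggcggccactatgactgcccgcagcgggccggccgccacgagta
TGIF1: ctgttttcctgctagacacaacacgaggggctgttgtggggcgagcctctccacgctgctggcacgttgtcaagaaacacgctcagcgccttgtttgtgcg
The first base of CACGTG lay -19 bases from the summit at LINC00896, -10 bases at ENSG00000274949 and 9 bases at ANKRD36BP2. At ENSG00000262094 it lay 77 bases from the summit, inside the 100 bp searched and outside the bases printed. The 7 forms searched, on both strands, were type 1 (CACGTG), type 2 (CACATG), type 3 (CACGCG), type 4 (CAGCTG), type 5 (CATATG), type 6 (CACCTG) and type 7 (CAGATG). The last 2 sites hold none of them within 100 bp of the summit.

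The peak lists held 8286 and 5242 N-MYC peaks in IMR-32 and 9125 to 15286 in DMSO-treated CHP-134 cells. For WDR5 they held 1693 and 1258 peaks in IMR-32, 1671 to 4891 in CHP-134 with DMSO and 15 to 5973 with the compound. They hold no read counts, so the depth of each library is unknown, and a site that a list lacks may still carry the protein below the q-value limit of 0.05. Fold is the ratio of the signal to the local background within a library, and folds are not compared between libraries. The share of 75-base words within 100 bp of the summit that occur once in GRCh37 was 100% at 331 of the 350 IMR-32-only sites and at 3671 of the 3704 shared sites.

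The line between IMR-32-only and shared sites was sharp for some regions. The IMR-32-only site nearest to a CHP-134 peak, near NHIP (fold 3.02 and 5.21 in IMR-32 replicates 1 and 2), was 1 bp from it, and the next lay near LINC03053 (5 bp) and UBQLN4 (112 bp). The shared sites with the least overlap lay near MYCBP2 (90 bp shared), ATRNL1 (124 bp) and C1orf220 (133 bp). Each of these 3 was overlapped in 1 of the 3 DMSO libraries, as were 227 shared sites in all, whereas 3082 shared sites were overlapped in all 3. Of the IMR-32-only sites, 17 had a CHP-134 DMSO peak within 1 kb, and the median distance to the nearest such peak was 38 kb.

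IMR-32-only sites were concentrated on chromosome 2, which held 117 of the 350 sites beside 284 shared sites, so that 29.2% of its regions were IMR-32-only. Divided into bins of 1 Mb, the genome had 6 bins with 6 or more sites, all on chromosome 2. These were 67-68 Mb (28 sites), 15-16 Mb (26), 14-15 Mb (10), 29-30 Mb (8), 16-17 Mb (6) and 66-67 Mb (6). Together they held 84 sites, and the other 266 sites were spread over 23 chromosomes with at most 4 in a bin. Without the 2 windows, chromosome 2 held 63 of 296 sites, and without all 6 bins it held 33 of 266. Chromosome 10 followed by share with 18 sites beside 137 shared sites (11.6%), then chromosome 1 with 38 beside 329 (10.4%), and chromosome 13 had 1 beside 59 (1.67%).

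**Figure D1:**
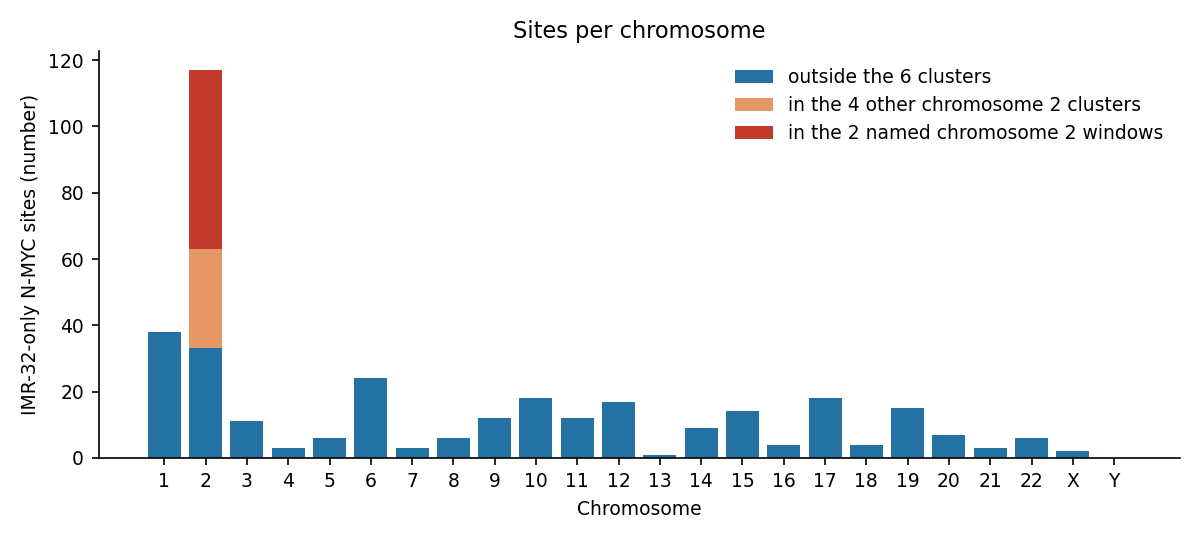
Number of IMR-32-only N-MYC sites on each chromosome (bars, linear axis from 0), split into the 2 named windows of chromosome 2, the 4 other 1 Mb bins of chromosome 2 with 6 or more sites, and all other positions. Chromosome 2 holds 117 sites, of which 54 lie in the 2 windows, 30 in the 4 other bins and 33 elsewhere.

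The 6 bins contain genes long linked to neuroblastoma. MYCN and its antisense gene MYCNOS lie at 16-17 Mb, DDX1 (an RNA helicase gene often amplified together with MYCN) and NBAS at 15-16 Mb, the receptor tyrosine kinase gene ALK at 29-30 Mb, and the homeobox gene MEIS1 at 66-67 Mb. All 8 sites at 29-30 Mb lay within ALK introns. At 67-68 Mb 53.6% of the sites lay in an intron of a long noncoding RNA (lncRNA) gene, such as LINC01828 or LINC01829, and 1 lay at the TSS of ETAA1, a gene of the replication stress response.

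Most peaks in the 6 bins differed in fold and −log10 q from most of the other IMR-32-only sites. Their folds were low while the −log10 q of most was high for such folds. In the 15-16 Mb window the median fold was 2.04 in replicate 1 and 2.23 in replicate 2, with a median −log10 q of 24.7 and 15.8. In the 67-68 Mb window the median folds were 2.0 and 2.21, with a median −log10 q of 16 and 12.2. The 266 sites outside the 6 bins had median folds of 5.42 and 5.74 and a median −log10 q of 8.41 and 6.59. A fold under 3 in both libraries was found at 72 IMR-32-only sites, all on chromosome 2 and 69 of them in the 6 bins, and at 4 shared sites, also on chromosome 2. DNA copy number was not measured, and its part in these calls was not tested.

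**Figure D2:**
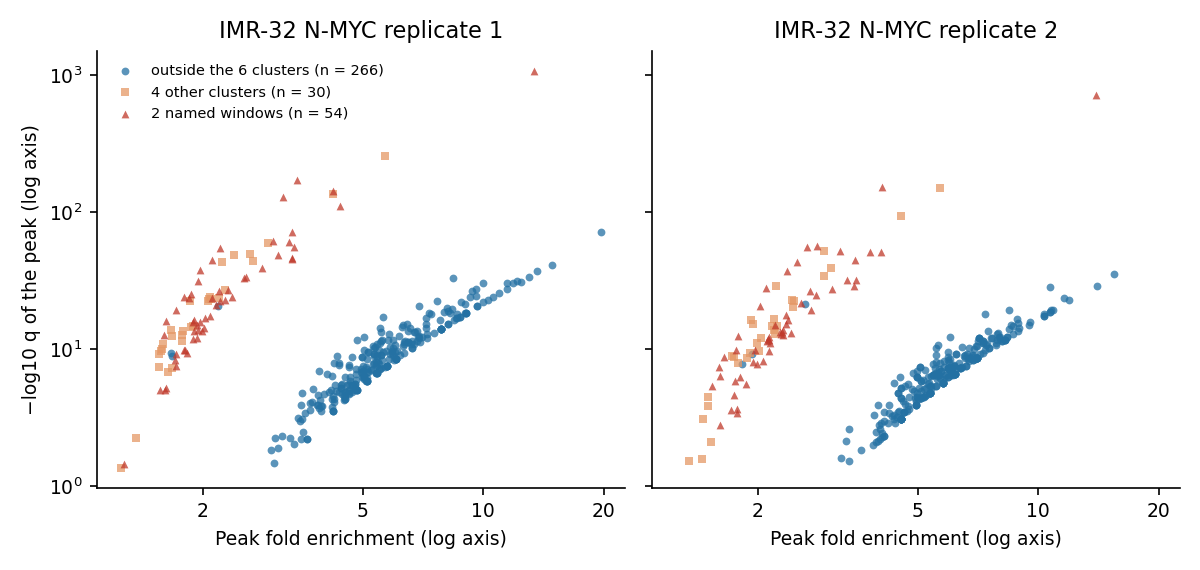
Fold enrichment (log axis) against −log10 q (log axis) of each IMR-32-only site in IMR-32 N-MYC replicate 1 (left) and replicate 2 (right); each point is a site, coloured by position. Sites of the chromosome 2 bins form a band to the left of the other sites, with median folds of 2.0 to 2.23 in the 2 windows against 5.42 and 5.74 outside the 6 bins, and DDX1 stands alone at folds of 13.4 and 13.9.

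DDX1 was the exception among the sites of the windows. Its promoter site (chr2:15731408-15732595, 10 bp from the TSS) had a fold of 13.4 in replicate 1 and 13.9 in replicate 2, and a −log10 q of 1084 and 717. It held place 3 of the 350 by the mean percentile of its fold in the 2 lists (97.4). The next in that window were a site in an intron of LINC01804 (fold 4.23 and 3.20) and an intergenic site nearest to ENSG00000287291 (3.43 and 4.08). The 3 highest sites at 67-68 Mb lay nearest to ENSG00000236605 (4.40 and 4.05), LINC01828 (3.28 and 3.81) and LINC01829 (3.33 and 3.51).

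CHP-134 libraries also had N-MYC peaks in the same stretches, those of the DMSO libraries at other positions by the choice of sites. At 15-16 Mb the 3 DMSO N-MYC libraries listed 1, 1 and 11 peaks and the 3 compound N-MYC libraries 7, 2 and 18, whereas IMR-32 listed 41 and 32. At 67-68 Mb CHP-134 listed 2, 1 and 3 N-MYC peaks with DMSO against 50 and 34 in IMR-32. The windows held 4 and 2 shared sites. The number of N-MYC peaks in both windows was thus higher in each IMR-32 library than in each CHP-134 library, a difference on which the choice of members rests in part.

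Outside the 2 windows, the folds of IMR-32-only sites were lower than those of shared sites. The median fold was 5.20 (replicate 1) and 5.56 (replicate 2) at the 296 sites against 6.65 and 6.60 at the 3704 shared sites. Over all 350 sites it was 4.96 and 5.19. Single IMR-32-only sites nonetheless reached folds of 19.6 in replicate 1 and 15.5 in replicate 2. Sites were also narrower, with a median width of 394.5 bp against 494 bp. These values describe the members and were not tested, since the IMR-32 peak calls chose them.

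The highest-ranked site outside the windows lay 5.78 kb from the TSS of LINC00896, and its fold was 13.6 in replicate 1 and 15.5 in replicate 2. FABP5, which codes for a fatty acid binding protein, followed with a site 42 bp from its TSS (14.8 and 14). The site at ENSG00000274949, a lncRNA gene near AP5S1, was 487 bp from the TSS (19.6 and 10.7). These 3 were among the highest of the IMR-32-only sites in each library.

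The next sites lay in introns or away from genes. A site in an intron of CERK, the gene of ceramide kinase, had folds of 11.8 and 10.9 and lay 3.83 kb from the TSS. An intronic site of GRK2, a kinase of G protein coupled receptors, had folds of 13.0 and 10.3. The site at ANKRD36BP2, a lncRNA annotated as a pseudogene product, lay 74 bp from the TSS (12.2 and 10.3), and that in an intron near ENSG00000262094 had folds of 11.4 and 10.7. Introns of GRID1, a glutamate receptor family gene (9.28 and 11.9), and of SORCS1, a sorting receptor gene (9.06 and 10.3), held sites 101 and 245 kb from the nearest TSS. Intergenic sites nearest to LINC01875 (9.01 and 9.55) and to PSAT1, a gene of serine synthesis, at 281 kb (8.76 and 9.49) were also among the 12 highest. Of these 12, 3 lay within 1 kb of a TSS, 8 held CACGTG within 100 bp of the summit and 11 held CACGTG or CACATG.

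IMR-32-only sites were mostly distal. Within 1 kb of a TSS lay 73 of the 350 sites (20.9%, 95% exact Clopper-Pearson interval 16.7% to 25.5%), compared with 2762 of 3704 shared sites (74.6%, 73.1% to 76.0%) and 69.9% of all 4054 IMR-32 regions. Without the 2 windows the share was 66 of 296 (22.3%, 17.7% to 27.5%). More than 10 kb from any TSS lay 58.0% of IMR-32-only sites (52.6% to 63.2%) and 14.9% of shared sites (13.7% to 16.1%), and more than 100 kb away lay 12.6% and 1.38%. Intervals cover counting error only, sites are not replicates, and no test was made. The annotation put 123 of the 350 sites in an intron of a protein-coding gene (35.1%), 125 between genes (35.7%), 62 in an intron of a lncRNA gene (17.7%), 17 in an untranslated or noncoding exon of a coding gene and 10 in a coding exon. Of shared sites, 5.67% lay in an intron of a lncRNA gene, and of the 54 sites in the 2 windows 42.6%.

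**Figure D3:**
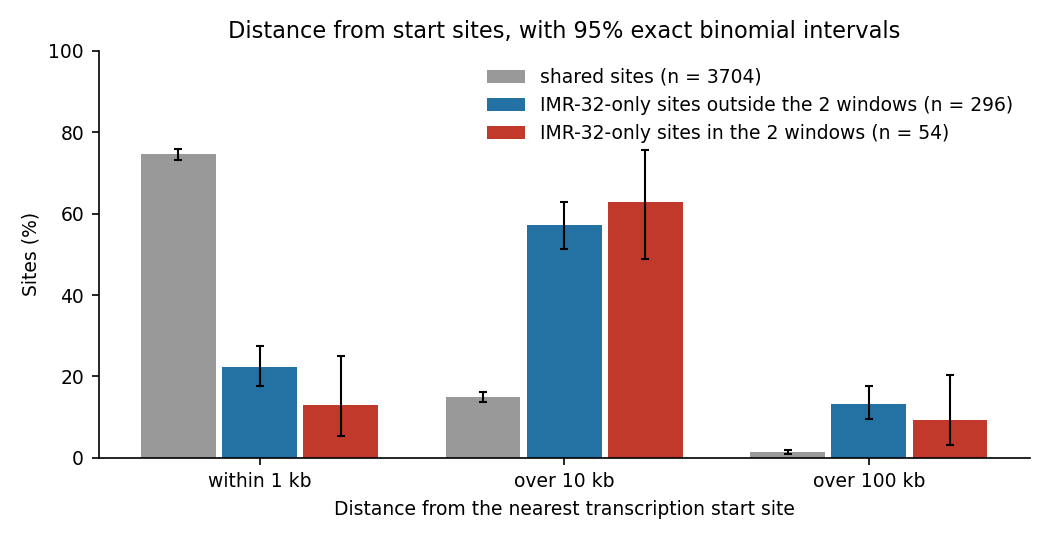
Percent of sites within 1 kb, over 10 kb and over 100 kb from the nearest annotated TSS, for shared sites (grey), IMR-32-only sites outside the 2 windows of chromosome 2 (blue) and those in the windows (red). Error bars are 95% exact binomial intervals, and 22.3% of the blue sites against 74.6% of the grey sites lie within 1 kb.

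The 73 promoter sites had a protein-coding gene as nearest in 43 cases and a lncRNA gene in 30. For 12 of them, the middle of a CHP-134 DMSO N-MYC region lay within 1 kb of a TSS of the gene. This could be the same TSS or another, so the gene had a called peak near a start in both lines. Among the 10 highest-ranked promoter sites outside the windows, FABP5, ENSG00000274949 and ANKRD36BP2 led. They were followed by the lncRNA genes ENSG00000251446 (fold 8.36 and 8.88) and ENSG00000286895 (10.6 and 7.82). SMARCA2, which codes for a SWI/SNF chromatin remodelling ATPase, had a site 174 bp from an annotated TSS (12.4 and 6.75), and NRN1, the gene of a neurite outgrowth protein, had one 18 bp from its TSS (7.33 and 7.98). Sites also lay at ARID1B, another SWI/SNF subunit gene (7.86 and 7.01), and TBC1D30, a Rab GTPase activating protein gene (5.92 and 8.01). Both genes were among those with a CHP-134 peak within 1 kb of a TSS. The pseudogene ASNSP1 (7.55 and 6.37) completed the 10.

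Few protein-coding genes had an IMR-32-only site at a TSS, so short gene lists are described by their counts alone. None of 79 cytosolic ribosomal protein genes and none of 45 cell cycle genes did, whereas 61 and 13 of them had a shared site there. Over all 20136 protein-coding genes 52 had an IMR-32-only site within 1 kb of a TSS (0.258%) and 2929 a shared site (14.5%), so that the absence of IMR-32-only sites from these 2 lists is near the share of all genes. Of 13 genes of the MYC, MAX and MXD network, 2 had an IMR-32-only site at a TSS (15.4%) and 6 a shared site. The first were MYCN and MXI1, which codes for a MAX partner that opposes MYC. The MXI1 site lay 107 bp from the TSS with folds of 4.23 and 4.95, and a CHP-134 peak lay within 1 kb of a TSS of the gene. MAX itself had a shared site at a TSS and an IMR-32-only site in an intron (5.56 and 5.59).

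The site at MYCN (chr2:16079701-16082531) covered the starts of MYCN and MYCNOS and had folds of 4.22 and 4.55 and a −log10 q of 136 and 94.0. Of 9 genes listed near MYCN, 4 (44.4%) had an IMR-32-only site at a TSS (MYCN, MYCNOS, DDX1 and NBAS) and 1 a shared site, and outside the 15-16 Mb window 2 of the 4 remained. Of 10 genes near MEIS1, ETAA1 alone had an IMR-32-only site at a TSS (folds 3.36 and 3.33), inside the 67-68 Mb window.

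Among 23 adrenergic transcription factor genes, which define the sympathetic-like state of neuroblastoma cells, MYCN was the single gene with such a site at a TSS, and KLF13 had 1 in its body (4.24 and 4.31). Of 25 mesenchymal factor genes none had a site at a TSS, and RUNX1 had 1 in an intron (6.40 and 6.97). HOXD10, a posterior homeobox gene, was the single gene of 48 homeobox cluster and MEIS/PBX genes with an IMR-32-only site at a TSS (113 bp away, 5.58 and 6.60, CACGTG present), while MEIS1 had sites in its body. None of 22 catecholamine and receptor kinase genes had a site at a TSS, and ALK was the one with sites in its body (folds 1.36 to 2.08 in replicate 1). Of 38 synapse and axon genes, SLIT1, the gene of an axon guidance ligand (6.58 and 6.41), and GRIK2, a kainate receptor gene (5.24 and 4.97), had intronic sites and none had a site at a TSS. Over all 20136 protein-coding genes 0.705% had a site in the gene body.

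The canonical E-box CACGTG lay within 100 bp of the summit at 116 of 350 IMR-32-only sites (33.1%, 28.2% to 38.3%), against 42.9% of all 4054 regions and 43.9% of shared sites (42.3% to 45.5%). Without the 2 windows the share was 37.5% (32.0% to 43.3%), and in the windows 5 of 54 sites held it (9.26%, 3.08% to 20.3%). In windows of the same length 2 kb upstream, CACGTG was found at 3.43% of IMR-32-only sites and 2.67% of shared sites. The letters CACGTG were thus more frequent at the summits of both classes than 2 kb away.

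The form CACATG, searched on both strands as all motifs were, was more frequent at IMR-32-only sites. It was found at 44% of them (38.7% to 49.4%), at 40.9% outside the windows (35.2% to 46.7%), at 61.1% in the windows (46.9% to 74.1%) and at 18.3% of shared sites (17.0% to 19.6%). In windows 2 kb upstream it was found at 12.3% of IMR-32-only and 9.69% of shared sites. CACGCG showed the opposite order, with 10.9% of IMR-32-only sites (7.80% to 14.6%) and 27.5% of shared sites (26.1% to 29.0%). None of the 7 forms was found at 10.3% of IMR-32-only sites and 16.5% of shared sites.

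The contrast in CACATG was smaller between sites in the same class of distance from a TSS. Among sites over 1 kb from a TSS, CACATG was found at 47.8% of 230 IMR-32-only sites outside the windows (41.2% to 54.5%) and at 38% of 942 shared sites (34.9% to 41.2%), and CACGTG at 40.4% (34.0% to 47.1%) and 46.6% (43.4% to 49.8%). Among promoter sites, CACGTG was found at 18 of 66 IMR-32-only sites (27.3%, 17.0% to 39.6%) and at 42.9% of 2762 shared sites (41.1% to 44.8%), and CACATG at 16.7% and 11.5%. The intervals of the distal classes nearly met for CACATG and overlapped for CACGTG. The motif CAGATG was found at 28.3% of distal IMR-32-only and 28.0% of distal shared sites. GC content within 100 bp of the summit had a median of 54.7% at IMR-32-only sites and 66.2% at shared sites, and of 53.7% and 58.7% at the distal ones.

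**Figure D4:**
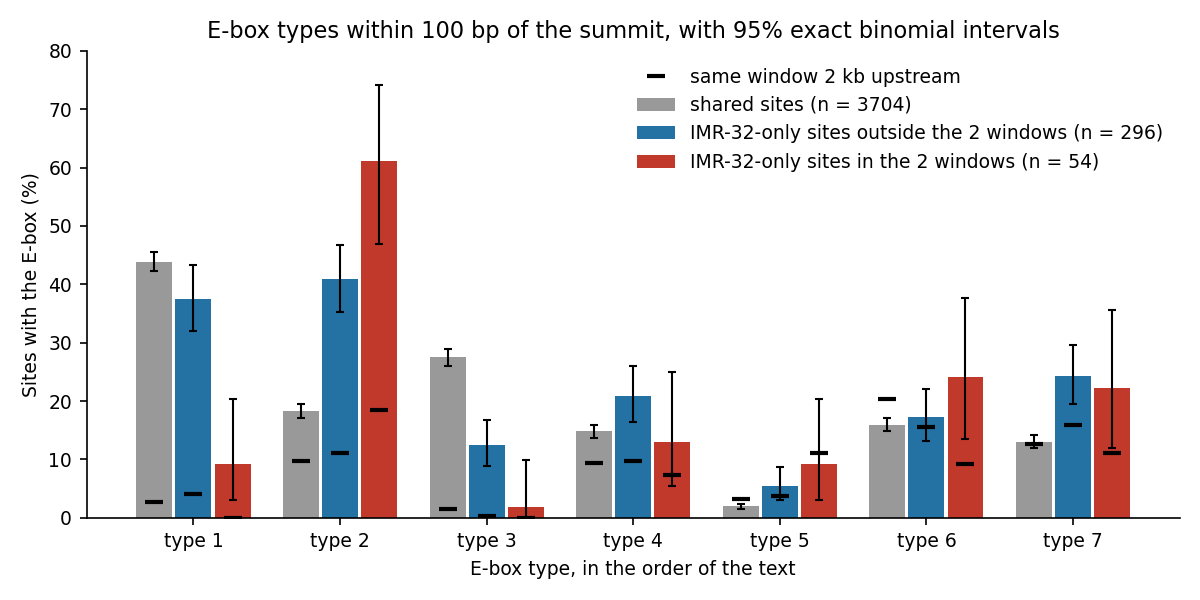
Percent of sites with each of 7 E-box forms within 100 bp of the summit (type 1 is CACGTG, type 2 is CACATG, type 3 is CACGCG, type 4 is CAGCTG, type 5 is CATATG, type 6 is CACCTG and type 7 is CAGATG), for shared sites and for IMR-32-only sites outside and in the 2 windows; error bars are 95% exact binomial intervals and black dashes give the same windows 2 kb upstream. Type 1 is found at 43.9%, 37.5% and 9.26% of the 3 classes and type 2 at 18.3%, 40.9% and 61.1%.

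The GATA-type letters AGATAA were found at 9.43% of IMR-32-only sites (6.58% to 13.0%) and 3.08% of shared sites, against 12.3% and 10.9% in windows 2 kb upstream. The AP-1-type letters TGACTCA were found at 3.43% and 1.70%, against 4.29% and 2.86% upstream. Neither was more frequent at the summits than upstream in either class.

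WDR5 libraries were not used to choose the sites. The choice did remove every region with an N-MYC peak in DMSO-treated CHP-134 cells. The study reports that most WDR5 peaks of these cells overlap N-MYC peaks. The choice therefore bears on the CHP-134 WDR5 shares at both classes of site. The tests below cannot separate this from a difference between the lines. Of the 350 IMR-32-only sites, 38 had a WDR5 peak in IMR-32 replicate 1 (10.9%) and 31 in replicate 3 (8.86%). In CHP-134 with DMSO, 6, 1 and 3 sites had one (1.71%, 0.286% and 0.857%). Both IMR-32 libraries thus lay above all 3 CHP-134 libraries, with means of 9.86% ± 1.41 (SD, n = 2) and 0.952% ± 0.719 (SD, n = 3). The difference was 8.90 percentage points ± 1.08 (SE), with p = 0.1 in a two-sided exact permutation test over libraries, which is the smallest p this design allows. At shared sites the order was not the same. The IMR-32 libraries had a WDR5 peak at 17.1% and 13.4% of them, and the CHP-134 DMSO libraries at 40.4%, 20.1% and 17.7%.

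The WDR5 peaks at IMR-32-only sites lay largely in the chromosome 2 bins. Without the 2 windows, the shares were 5.74% and 6.08% in IMR-32 and 1.69%, 0.338% and 0.676% in CHP-134 (exact permutation p = 0.1). In the windows, 21 and 13 of 54 sites (38.9% and 24.1%) had a WDR5 peak in IMR-32 and 1, 0 and 1 in CHP-134. Apart from DDX1, the IMR-32 WDR5 folds at these sites were low for their lists. They ran from 1.37 to 3.36 in replicate 1 and from 1.54 to 3.28 in replicate 3. The highest of them, at ETAA1, lay at percentiles 6.32 and 3.26 of the folds of the 2 lists. Over the whole 15-16 Mb window, IMR-32 listed 20 and 10 WDR5 peaks and CHP-134 with DMSO 9, 0 and 5. The compound libraries listed 38, 0 and 0 there. At 67-68 Mb the counts were 15 and 10 in IMR-32 and 1, 0 and 0 with DMSO. Outside all 6 bins, 5 and 7 of 266 sites (1.88% and 2.63%) had one in IMR-32 and 4, 1 and 1 in CHP-134 (1.5%, 0.376% and 0.376%), a difference of 1.5 percentage points ± 0.532 (SE, exact permutation p = 0.2). The difference of 8.90 points over all sites was thus 5.01 points without the windows and 1.5 points without the 6 bins. With sites taken from IMR-32 N-MYC replicate 2 alone it was 4.66 points, and from replicate 1 alone 3.53 points.

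Measured against the shared sites of the same library, the share at IMR-32-only sites was lower by 6.23 and 4.59 percentage points in IMR-32 (mean -5.41 ± 1.16 SD, n = 2) and by 38.7, 19.8 and 16.9 points in CHP-134 (mean -25.1 ± 11.8 SD, n = 3). The difference between the lines, 19.7 points ± 6.88 (SE), had an exact permutation p of 0.2. Among distal sites outside the windows the shares in IMR-32 were 4.78% and 4.35% at IMR-32-only and 6.37% and 4.03% at shared sites. This distal class still held sites of the 4 other chromosome 2 bins. Outside all 6 bins, with promoter sites included, the IMR-32 shares were 1.88% and 2.63%. In the CHP-134 DMSO libraries, 0 of 230 distal IMR-32-only sites had a WDR5 peak, for which the exact interval reaches 1.59%, against 20.7%, 9.02% and 6.79% of the distal shared sites.

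A WDR5 peak in both IMR-32 lists was found at 25 of 350 IMR-32-only sites (7.14%, 4.68% to 10.4%), against 10.6% of all 4054 regions. Of the 25, 22 lay in the 6 bins. The other 3, named after their values were seen, lay nearest to ENSG00000274949, LINC00574 and LINC01404. Outside the 6 bins the share was 3 of 266 (1.13%, 0.233% to 3.26%), below the 10.6%. No WDR5 list of the 8 had a peak at 302 of the 350 sites (86.3%), and at 44% of shared sites.

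The 3 sites with a WDR5 peak in the most lists had it in 5 of 8. Their WDR5 folds in both lines are listed and are not compared. At DDX1 the WDR5 fold was 9.96 and 9.03 in IMR-32 and 1.37 and 1.37 in CHP-134 DMSO replicates 1 and 3. At the MYCN promoter site it was 3.11 and 3.12 in IMR-32 and 1.40 and 1.38 in those CHP-134 libraries. These CHP-134 calls were among the lowest of their lists, at percentiles 0.0613 and 0.0598 of fold for DDX1 and 0.102 and 0.180 for MYCN. Compound replicate 1 also had a call at both sites, with folds of 1.47 and 1.55. The third, 460 bp from the TSS of LINC00574 on chromosome 6, had a WDR5 fold of 29.2 and 26.7 in IMR-32 and of 5.27, 6.70 and 5.93 in the 3 CHP-134 DMSO libraries. Its calls in these lay at percentiles 75.9, 76.7 and 70.3 of fold, and it was the single site of the 350 with a peak in all 3. Its N-MYC fold in IMR-32 was 4.19 and 7.43. Sites near MYCNUT and ENSG00000235127 and another site in MYCN (chr2:16083009-16084539), all on chromosome 2, had a WDR5 peak in 3 lists.

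**Figure D5:**
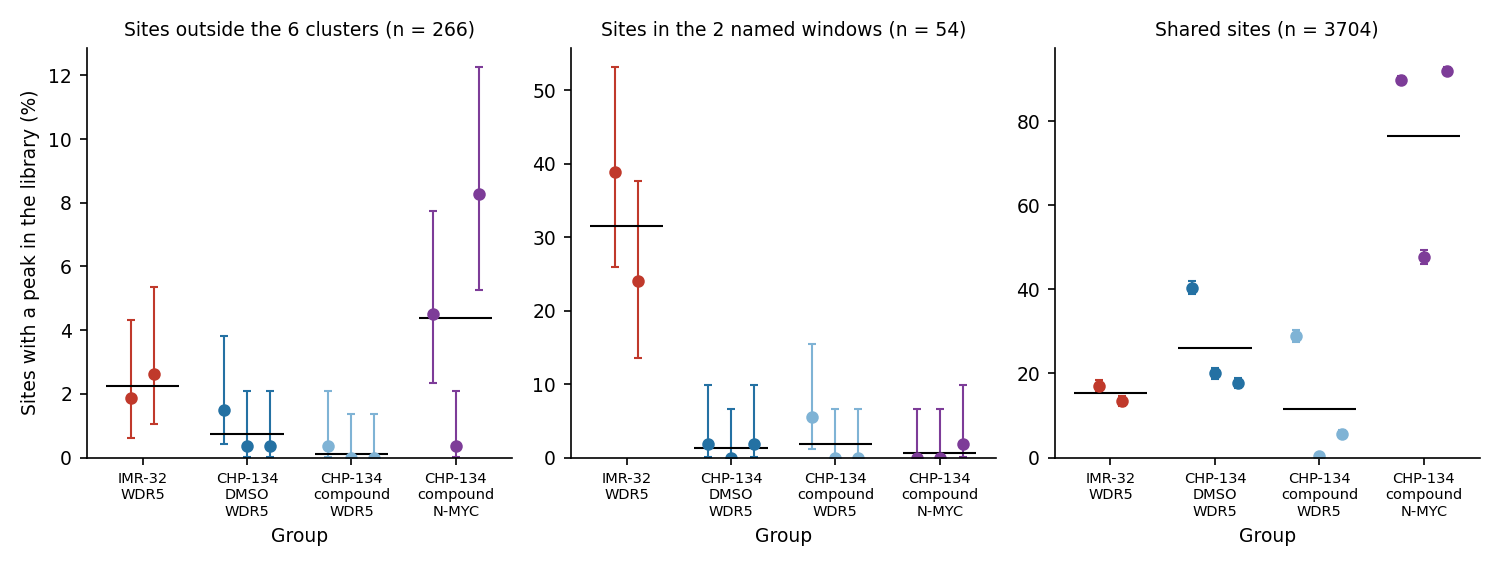
Percent of sites with a peak in each library not used to choose them, for IMR-32-only sites outside the 6 bins of chromosome 2, those in the 2 named windows, and shared sites (panels have different axes). Points are libraries with 95% exact binomial intervals and horizontal lines are group means; WDR5 in IMR-32 reaches 38.9% and 24.1% of the sites in the windows but 1.88% and 2.63% of those outside the bins.

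In CHP-134 cells given the compound, 8, 0 and 0 of the 350 sites had a WDR5 peak (2.29%, 0% and 0%, the last 2 allowing up to 1.05%), against 6, 1 and 3 with DMSO. The groups overlapped, with a difference of -0.190 percentage points ± 0.868 (SE, two-sided exact permutation p = 0.8), and the direction changed when single libraries were left out. Compound replicates 2 and 3 listed 15 and 401 WDR5 peaks in all, against 5973 in replicate 1 and the part of these totals in the comparison was not tested.

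N-MYC was called at a small part of the IMR-32-only sites in compound-treated CHP-134 cells. It was called at 13, 1 and 26 of the 350 sites in compound replicates 1, 2 and 3 (3.71%, 0.286% and 7.43%, mean 3.81% ± 3.57 SD, n = 3). The same libraries had a peak at 89.9%, 47.7% and 92% of shared sites. At least 1 of the 3 libraries had a peak at 35 IMR-32-only sites (10.0%, 7.06% to 13.6%), against 88.1% of all 4054 regions, and without the windows at 34 of 296 (11.5%, 8.09% to 15.7%). The DMSO libraries have none at these sites by the choice, so no comparison between the arms was made. Of the 35 sites, 2 had a DMSO peak within 1 kb and 4 lay in the 6 bins of chromosome 2.

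Compound-treated cells had a peak in 2 of 3 libraries at 5 sites and in 3 at none. Folds of both lines are listed for these sites and are not compared. The promoter of HS2ST1, the gene of a heparan sulfate sulfotransferase, had an N-MYC fold of 5.19 and 4.08 in compound replicates 1 and 3, beside 8.24 and 6.03 in IMR-32. The start shared by ENSG00000286787 and PSMF1, a proteasome inhibitor gene, had 5.37 and 5.41, beside 6.04 and 5.78 in IMR-32. SLC45A2, a melanosomal transporter gene, had 3.70 and 3.73 in compound replicates 1 and 2, beside 6.04 and 3.23 in IMR-32. The others were a site in an intron of AIG1 (5.38 and 4.24 in compound replicates 1 and 3) and a site at 14-15 Mb of chromosome 2 with IMR-32 folds of 1.86 and 1.94.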

How the data were processed

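N-MYC and WDR5 ChIP-seq peak lists of 16 libraries were used. Before deposit, the authors removed adapters (Cutadapt), mapped the reads to hg19 (Bowtie2) and ran MACS2 on each library with a q-value limit of 0.05. Versions and the control library are not given in the sources used here. In the deposited lists the fold is a linear ratio of signal to local background, and each p-value or q-value is given as −log10. The deposited score, computed from the q-value, was not used. IgG samples were not analysed here. Libraries were grouped by their labels.

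Peaks were merged at 1 bp overlap. Summits were those of the IMR-32 peaks. TSSs came from GENCODE 44 mapped to GRCh37, and distances ran from the middle of a region. Scripts used Python 3.11.15, pandas 2.3.3 and scipy 1.17.1 and were tested on simulated data. Shares of sites have 95% exact Clopper-Pearson intervals, and groups of libraries were compared by two-sided exact permutation tests, whose smallest p is 0.1 for 2 or 3 libraries against 3. No model was fitted across sites. The sites named are the 12 highest by mean percentile of fold outside the 2 windows, the 3 highest in each window, the 10 highest at promoters outside the windows, the 5 in the most WDR5 lists, the 5 in the most compound N-MYC lists, and all genes of the lists with a site. One of the 12 is not reported here. Of 80 ribosomal protein genes listed, 79 were found in the annotation. The sites and the gene lists were chosen with earlier results of these data known. Alternatives are given in the closing section.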

Additional observations from a re-analysis of the deposited data

Results flagged for a closer look

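The WDR5 share of the 54 IMR-32-only sites in the 2 windows of chromosome 2 stood above that of shared sites in both IMR-32 libraries, by 21.8 and 10.6 percentage points, and below it in all 3 CHP-134 DMSO libraries, by 15.9 to 38.5 points. The difference between the lines was 41.0 percentage points ± 8.92 (SE), with p = 0.1 in a two-sided exact permutation test over 2 and 3 libraries, the smallest p possible. It was singled out because the libraries of the 2 lines lay on opposite sides of zero. That choice used the same values as the test, so this p is no independent support. The sites also lack a CHP-134 DMSO N-MYC peak by the choice, which bears on the CHP-134 shares. In the same windows the N-MYC folds were low and the −log10 q high. The IMR-32 WDR5 folds at these sites, apart from DDX1, ran from 1.37 to 3.36 in replicate 1 and from 1.54 to 3.28 in replicate 3. The part of these values in the WDR5 result was not tested. Over the whole 15-16 Mb window, CHP-134 with DMSO listed 9, 0 and 5 WDR5 peaks, against 20 and 10 in IMR-32.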

How the results depend on the processing

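The number of IMR-32-only sites was moved beyond 1.5 times by leaving out 1 IMR-32 N-MYC library. With 1 N-MYC library of IMR-32 or of DMSO-treated CHP-134 cells left out, it ran from 373 to 1595 over the 5 settings. It was 698 from IMR-32 replicate 2 alone and 1595 from replicate 1 alone, against 350. The share of sites within 1 kb of a TSS ran from 21.5% to 29.0% (28.96% without CHP-134 DMSO replicate 1), with CACGTG from 23% to 34.3%, with WDR5 in both IMR-32 lists from 3.89% to 7.92%, and with N-MYC in compound libraries from 3.45% to 10.6% (10.6% and 7.70% without CHP-134 DMSO replicates 1 and 3). Without the 2 windows, WDR5 in both IMR-32 lists was found at 4.39%. Without all 6 bins of chromosome 2, an alternative chosen after seeing the data, it was found at 1.13%, and CACGTG at 41.0%. The TSS share was 32.9% within 5 kb and 14% for protein-coding TSSs, and the CACGTG share was 27.7% within 50 bp. Sites without any compound N-MYC peak have a compound share of 0% by construction. The number of sites was 236 with a −log10 q of at least 5 and 331 with unique 75-base words only, also chosen after seeing the data.

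None of the 3 tests over libraries could pass 0.05 in these designs, so their p-values (0.1 to 0.5, 0.1 to 0.5 and 0.2 to 1 over the alternatives) say nothing about stability. The IMR-32 minus CHP-134 difference in WDR5 share stayed positive in all 17 alternatives, from 7.90 to 9.90 percentage points when a WDR5 library was left out and 1.5 without the 6 bins. The same difference relative to shared sites was 12.4 points with sites from IMR-32 N-MYC replicate 1 alone and 12.9 without CHP-134 DMSO WDR5 replicate 1, against 19.7. The compound minus DMSO difference ran from -1.53 to 0.190 points when an N-MYC or WDR5 library was left out, and turned to 0.190 without DMSO replicate 1, compound replicate 2 or compound replicate 3. Whether same-numbered libraries form pairs is not known. Their deviations over the 4054 regions correlated at -0.00834 between the lines and at 0.0996 to 0.208 between the arms, which does not settle it. With the replicate block the 3 differences were 8.57 (p = 0.5, exact sign-flip test of 2 pairs), 22.4 (p = 0.5) and -0.190 points (p = 0.75, 3 pairs). The lists hold no read counts, so the limit set by depth is unknown.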
